A study of Mus musculus with 4 samples.

Results

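The genes for 10 enzymes of the routes that regenerate NADPH were followed in MLO-Y4 cells, a mouse cell line with osteocyte-like features. The genes were taken by name from the 55450 genes of the count table: *G6pdx*, *Pgls* and *Pgd* of the oxidative pentose phosphate route, *Taldo1* and *Tkt* of its non-oxidative part, *Me1* for malic enzyme, *Idh1* and *Idh2* for isocitrate dehydrogenase, and *Mthfd1* and *Aldh1l2* of the folate route. Each name had 1 row, and all 10 genes were among the 16269 genes that passed the filter on low counts. RNA-seq was performed on 2 unloaded and 2 loaded samples of wild-type MLO-Y4 cells. The loaded cells were grown to 60% confluency on silicone-bottomed plates coated with type I collagen and then stretched equally in all directions for 12 h, with 20% strain and 0.5 Hz as the settings. The unloaded cells reached the same confluency on ordinary culture plates and then spent 12 h in the incubator of the stretching device without being stretched, so the effects of stretch and of the collagen-coated silicone surface cannot be told apart.

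NADPH is the reducing agent that keeps glutathione and thioredoxin reduced and that drives the synthesis of fatty acids and cholesterol. It is made from NADP in the cytosol mainly by the oxidative pentose phosphate route, with further supply from malic enzyme, the cytosolic isocitrate dehydrogenase and folate metabolism, while mitochondria have enzymes of their own because NADPH does not cross their inner membrane. Several of the cytosolic enzymes are known targets of NRF2, the transcription factor of the antioxidant response, in other cells.

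The libraries held between 28941994 and 32185693 counts, and 3 counts corresponded to between 0.093 and 0.103 CPM, the unit of counts scaled to the library total corrected by edgeR's TMM factors. Replicates of a group differed by more than counting noise, with a chi-square per degree of freedom of 17.6 between the unloaded and 19.5 between the loaded libraries, against 27.0 to 31.0 between libraries of different groups. Among markers of the bone lineage, *Col1a1* lay between 931 and 1032 CPM, *Gja1* between 485 and 584 CPM and *Phex* between 43.7 and 55.8 CPM. *Pdpn* was measured at 143 and 151 CPM in unloaded and 215 and 228 CPM in loaded cells (edgeR adjusted p = 0.0334). *Dmp1* had 12 to 14 counts in each library, *Sost* was seen in a single library with 4 counts, and *Mepe* had none. The other listed bone markers, *Alpl*, *Bglap* and *Fgf23*, had at most 14 counts in a library. Of 11 markers of other cell types, the macrophage receptor gene *Csf1r* was the only one above 10 CPM in any library, with 1558 to 1584 CPM. The leukocyte marker *Ptprc* and the macrophage marker *Adgre1* had at most 4 counts in a library. The summed level of the 11 markers was 1581 and 1591 CPM in unloaded and 1569 and 1571 CPM in loaded cells, nearly all of it *Csf1r*. Of the other markers, *Ctsk*, a protease gene of osteoclasts, was higher in both loaded libraries. It was measured at 7.93 and 7.35 CPM there, against 5.13 and 4.85 CPM in unloaded cells (edgeR adjusted p = 0.228). The other osteoclast gene listed, *Acp5*, had 5 counts in loaded replicate 1 and none elsewhere. The part of these markers in the results below was not tested.

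In loaded cells 8 of the 10 genes had higher values in both libraries than in either unloaded library, *Idh2* had lower values in both, and *Aldh1l2* overlapped between the groups. The differences were small, between 15.3% lower for *Idh2* and 51.5% higher for *Pgls*. The median log2 fold change of the 10 genes was 0.22, against -0.009 over all tested genes. Among all tested genes, 22.1% lay higher and 24.5% lay lower in both loaded libraries than in either unloaded one. None of the 10 genes passed an adjusted p of 0.01 in edgeR's quasi-likelihood test, which called 0.0123% of all tested genes higher and 0.0861% lower. None passed 0.05 either, where the shares were 0.338% and 0.565%. That depended on the genes tested for *Pgd*. Its edgeR adjusted p was 0.0463 with at least 10 counts required in every library and 0.0427 with protein-coding genes only. Without adjustment, 6 genes were higher and 1 gene was lower at a p under 0.05, against 6.88% and 7.46% of all tested genes. DESeq2 called *Pgd* higher at an adjusted p under 0.01 and called no member lower, with 1.34% of its tested genes higher and 1.52% lower. At an adjusted p under 0.05, DESeq2 called 4 members higher, *Pgd*, *Idh1*, *Pgls* and *Me1*, against 2.48% of all genes. No member passed 0.01 with limma-voom. The labels do not say whether replicates were grown separately. These p-values therefore set the group difference against a spread between samples that may not be one between separate cultures. In bulk RNA, more cells with a transcript and more of it per cell cannot be told apart.

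**Figure D1:**
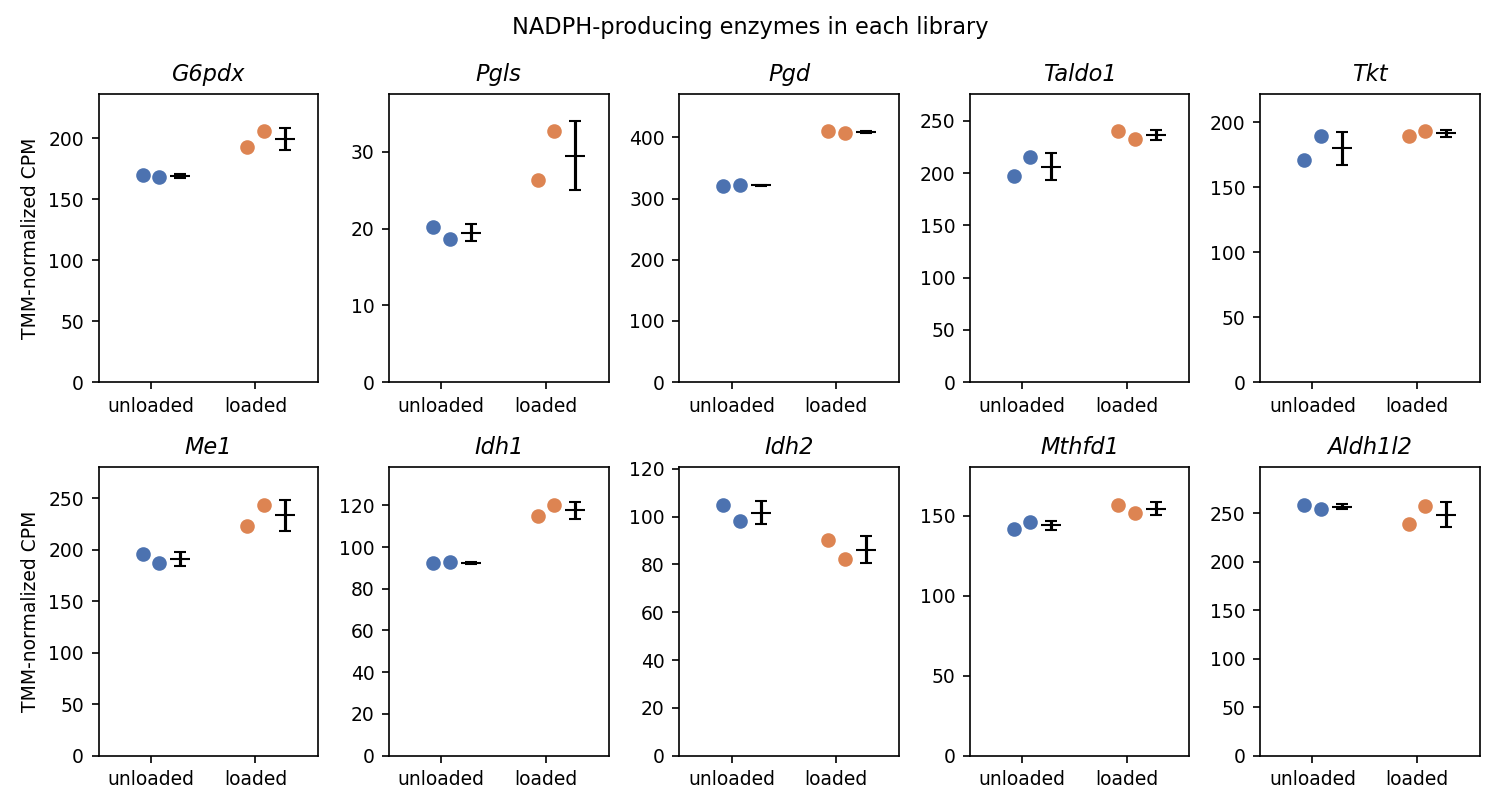
TMM-normalized CPM (vertical axis, from 0) of the 10 genes in each unloaded (blue) and loaded (orange) library, with the mean and SD of the 2 replicates in black. Both loaded values lie above both unloaded values for 8 genes and below them for *Idh2*, and the values of *Aldh1l2* overlap.

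The oxidative pentose phosphate route makes NADPH in a pair of dehydrogenase steps with a hydrolysis between them. *G6pdx* encodes glucose-6-phosphate dehydrogenase, the entry and control point of the route, and is a minus-strand gene of chromosome X (74409483 to 74429194, GRCm38, as are all coordinates here). It was measured at 170 and 168 CPM in unloaded and at 193 and 206 CPM in loaded cells. The loaded values did not reach down to the unloaded ones, but they lay farther from each other than the unloaded values did. The log2 fold change was 0.24 (standard error 0.0674, 95% interval 0.08 to 0.40), with an edgeR adjusted p = 0.19 and a DESeq2 adjusted p = 0.107.

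*Pgd*, which encodes phosphogluconate dehydrogenase, the other NADPH-forming enzyme of the route, is a minus-strand gene of chromosome 4 (149149991 to 149166771). It was measured at 321 and 322 CPM in unloaded cells and at 410.3 and 408 CPM in loaded cells. The means of 321 ± 0.704 and 409 ± 1.33 CPM (SD, n = 2 per group) stood much farther apart than the replicates. The replicates lay closer together than counting error alone would place them, so these SDs are not a measure of precision. Exact Poisson 95% intervals, which cover counting error only, were 314 to 327 and 315 to 328 CPM in unloaded cells. In loaded cells they were 403 to 417 and 401 to 416 CPM. The log2 fold change was 0.35 (standard error 0.055, 95% interval 0.22 to 0.48), with an edgeR adjusted p = 0.061 and a DESeq2 adjusted p = 0.000339. It ranked 176 of 16269 genes by edgeR's p, the first of the 10.

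*Pgls* encodes the lactonase that joins the dehydrogenase steps and makes no NADPH itself. It is a plus-strand gene of chromosome 8 (71592176 to 71601092) and was the least abundant member, with 588 and 566 counts in unloaded and 849 and 974 counts in loaded cells. These counts were 20.2 and 18.7 CPM against 26.3 and 32.7 CPM. The loaded replicates differed from each other by more than counting error, with exact Poisson 95% intervals of 24.6 to 28.1 and 30.7 to 34.8 CPM, which cover counting error only. Its log2 fold change was the largest of the 10, at 0.60 (standard error 0.14, 95% interval 0.26 to 0.94), and its interval was the widest (edgeR adjusted p = 0.143, DESeq2 adjusted p = 0.0366). *Fam129c* shares 776 of the 3770 exonic bases of *Pgls* on the same strand, and had 51 to 108 counts in a library with overlapping groups.

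The non-oxidative part returns pentose phosphates to glycolysis and forms no NADPH. *Taldo1*, the gene for transaldolase (chromosome 7, 141392199 to 141402968, plus strand), was measured at 197 and 215 CPM in unloaded and 240.1 and 233 CPM in loaded cells. *Tkt*, the gene for transketolase (chromosome 14, 30548359 to 30574720, plus strand), was measured at 171 and 189 CPM in unloaded and 189.6 and 193 CPM in loaded cells. For both genes the unloaded replicate 1 was the lowest library, and for *Tkt* the unloaded replicate 2 almost reached the loaded values. The log2 fold change of *Taldo1* was 0.20 (standard error 0.0707, 95% interval 0.03 to 0.37, edgeR adjusted p = 0.288). That of *Tkt* was 0.09 with a 95% interval of -0.10 to 0.27 (edgeR adjusted p = 0.662). The interval holds both no difference and one as large as its upper bound.

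*Me1* encodes the cytosolic malic enzyme, which turns malate into pyruvate and is known for supplying fatty acid synthesis. This minus-strand gene of chromosome 9 (86581371 to 86695953) was measured at 196 and 187 CPM in unloaded and at 223 and 244 CPM in loaded cells. The groups did not overlap, and the log2 fold change was 0.29 (standard error 0.0736, 95% interval 0.11 to 0.47). The edgeR adjusted p = 0.167 and the DESeq2 adjusted p = 0.0367. The processed pseudogene *Gm7049* was the gene that shared most 75-base stretches with *Me1*. Of all such stretches in *Me1* transcripts, 20.0% were also found in another gene, and *Gm7049* had between 13 and 82 counts in a library against 5662 to 7273 for *Me1*.

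The isocitrate dehydrogenases that use NADP carry out the same reaction in different compartments, *Idh1* in the cytosol and peroxisomes and *Idh2* in mitochondria. *Idh1* (chromosome 1, 65158616 to 65186500, minus strand) was measured at 92.1 and 92.7 CPM in unloaded and at 115 and 120.3 CPM in loaded cells. Its log2 fold change was 0.35 (standard error 0.0746, 95% interval 0.16 to 0.53, edgeR adjusted p = 0.129, DESeq2 adjusted p = 0.0211). *Idh2* (chromosome 7, 80094846 to 80115392, minus strand) was the only member with both loaded values below both unloaded values, at 105 and 98.3 CPM in unloaded and 90.1 and 82.3 CPM in loaded cells. Its log2 fold change was -0.24 (standard error 0.0886, 95% interval -0.46 to -0.02, edgeR adjusted p = 0.306, DESeq2 adjusted p = 0.318).

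Per kilobase of exon, *Idh2* was the more abundant of the pair in both unloaded libraries and *Idh1* in both loaded libraries. The ratio of *Idh1* to *Idh2* was 0.817 and 0.88 in unloaded and 1.19 and 1.36 in loaded cells, with means of 0.848 ± 0.0448 and 1.28 ± 0.126 (SD, n = 2 per group). The ratio differed by 0.59 on the log2 scale. That difference does not depend on the gene length used, but with the longest transcript *Idh2* was the more abundant in loaded replicate 1, and with the coding length *Idh1* was in unloaded replicate 2. This ratio was chosen after its values were seen. A two-sided exact permutation test gave p = 0.333, the smallest value that 2 against 2 libraries allow.

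In the folate route, *Mthfd1* encodes the cytosolic enzyme with several activities, 1 of which can form NADPH, and *Aldh1l2* encodes a mitochondrial dehydrogenase that oxidizes the formyl group of folate to carbon dioxide. *Mthfd1* (chromosome 12, 76255298 to 76319803, plus strand) was measured at 142 and 146 CPM in unloaded and at 157 and 152 CPM in loaded cells. The groups did not overlap, but the 95% interval of its log2 fold change of 0.10 ran from -0.06 to 0.26 (edgeR adjusted p = 0.553). *Aldh1l2* (chromosome 10, 83487450 to 83534140, minus strand) was measured at 259 and 255 CPM in unloaded and at 239.5 and 258 CPM in loaded cells. Its log2 fold change was -0.04 with a 95% interval of -0.21 to 0.12 (edgeR adjusted p = 0.817).

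The sign of *Aldh1l2* turned to 0.01 without loaded replicate 1, so *Idh2* was the only member that stayed negative with each library left out. Exons of neighbouring genes on the opposite strand overlap 1056 of 7503 exonic bases of *Aldh1l2* (*D10Wsu102e*) and 418 of 3080 bases of *G6pdx* (*Ikbkg*). The strandedness of the libraries is not given in the sources used here, so reads from these stretches cannot be assigned with certainty. *Ikbkg* overlapped between the groups, with a mean of 55.9 ± 9.83 CPM in unloaded and 54.5 ± 8.25 CPM in loaded cells. *D10Wsu102e* was measured at 171 ± 2.49 and 189 ± 12.5 CPM (SD, n = 2 per group).

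**Figure D2:**
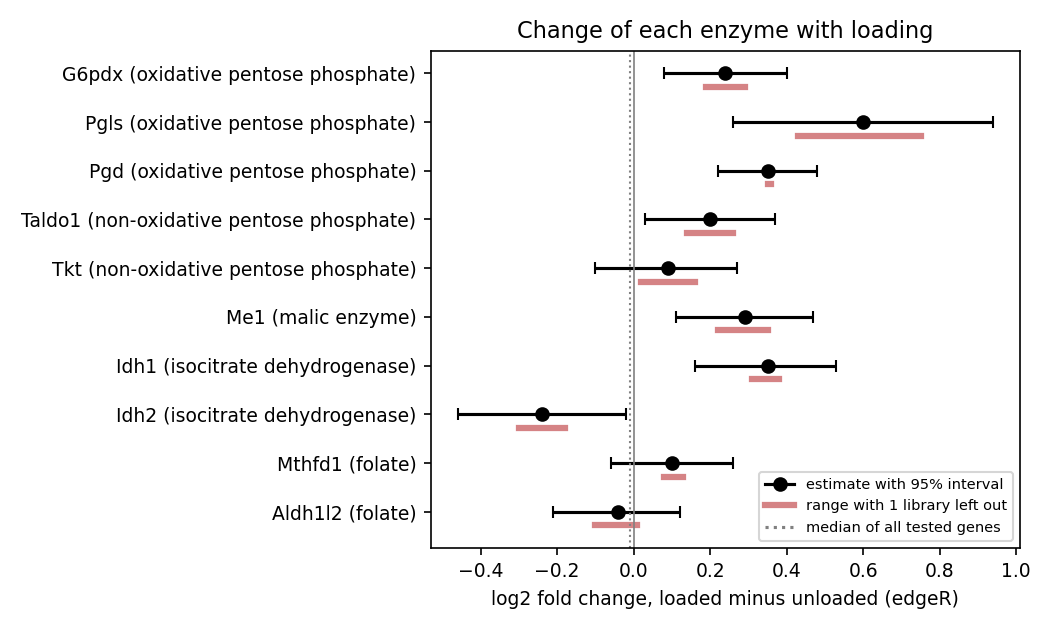
Log2 fold change of each gene, loaded minus unloaded, from edgeR's quasi-likelihood test (points) with its 95% interval (black bars), the range with each library left out in turn (red) and the median of all tested genes (dotted line). The intervals of *Tkt*, *Mthfd1* and *Aldh1l2* include 0, and that of *Idh2* lies below 0.

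Levels were compared between genes as CPM per kilobase of exon. *Taldo1* was the most abundant member, at 90.9 and 99.2 CPM per kilobase in unloaded and 109 ± 2.16 in loaded cells (SD, n = 2 per group), and *Pgls* was the least abundant, at 5.16 ± 0.294 and 7.82 ± 1.19. The next in order were *G6pdx*, *Pgd* and *Me1*, with 54.8 ± 0.528, 49.8 ± 0.109 and 49.8 ± 1.73 CPM per kilobase in unloaded cells. *Pgd* and *Me1* did not differ beyond their spread there, nor did *G6pdx* and *Pgd* in loaded cells, with 64.8 ± 2.92 and 63.5 ± 0.206. *Idh1*, *Idh2*, *Mthfd1* and *Aldh1l2* lay between 32.5 and 39.3 in unloaded and between 33.2 and 42.4 in loaded cells, and *Tkt* lay at 24.5 ± 1.72 and 26.0 ± 0.338. The order depended on the length, since with the coding length alone *Pgd* came first, at 221 and 222 CPM per kilobase in unloaded cells against 172 and 188 for *Taldo1*.

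Summed over the members of a route, the oxidative pentose phosphate genes gave 110.3 and 109 CPM per kilobase in unloaded and 133 and 139 in loaded cells, a ratio of 0.31 on the log2 scale. The non-oxidative genes gave 114 and 125 in unloaded and 136 and 134 in loaded cells. *Me1* on its own gave the malic enzyme values of 51.0, 48.6, 57.9 and 63.4 in the same order of libraries. The isocitrate dehydrogenases summed to 73.9 and 71.4 in unloaded and 76.2 and 75.2 in loaded cells, since the opposite differences of *Idh1* and *Idh2* largely cancelled. The folate genes summed to 66.5 and 66.9 in unloaded and 67.4 and 68.6 in loaded cells. As a share of the summed level of the 10 genes, the oxidative route was 26.5% and 26.0% in unloaded and 28.3% and 28.9% in loaded cells, and the folate route was 16.0% and 15.9% against 14.3% in each loaded library. These levels and shares depended on the length. With the coding length, the oxidative share was 34.7% and 34.0% in unloaded and 37.3% and 37.8% in loaded cells. The oxidative sum then lay above the non-oxidative one in every library, and with the longest transcript it lay below in every library. These sums are a description, since members of a route are not replicates.

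**Figure D3:**
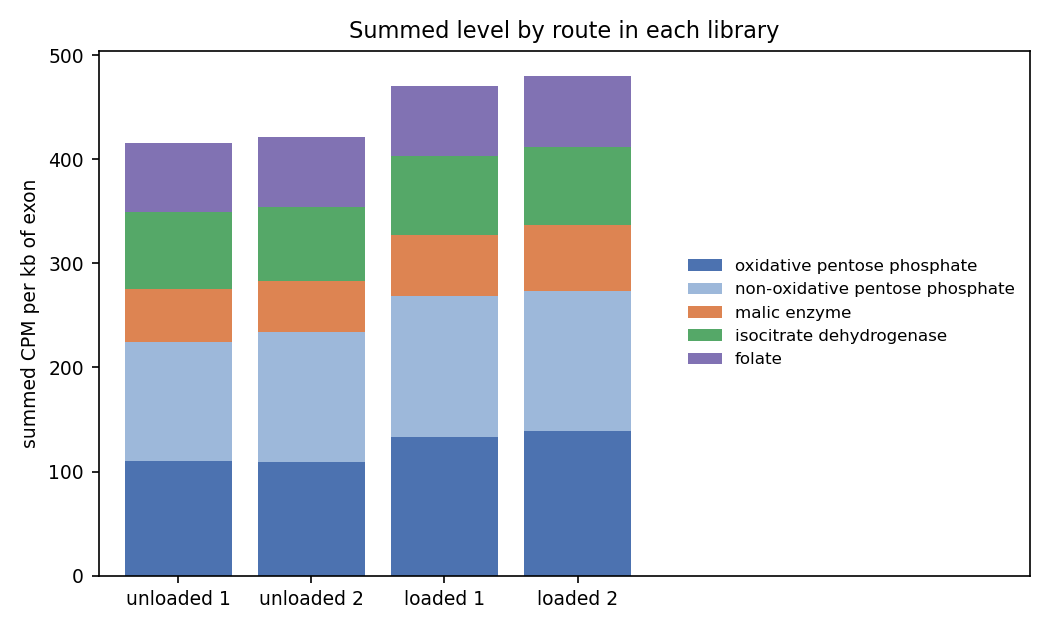
Summed level of the genes of each route in each library, as TMM-normalized CPM per kilobase of exon (vertical axis, from 0), stacked by route. The total was 416 and 421 in unloaded and 471 and 479.9 in loaded cells, and the oxidative pentose phosphate segment went from 110.3 and 109 to 133 and 139.

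NRF2 binds the antioxidant response element, whose core was searched as TGACNNNGC on both strands of the promoters that RefSeq gives for GRCm38.p6, from 250 bases before to 50 bases after each transcription start. The table held 12 promoters of 9 members and did not include *Aldh1l2*. A match was found in *G6pdx*, *Me1* and *Pgd*, each in 1 promoter. Of all 32851 promoters, 12.4% held a match, and of the 27025 genes they belong to, 14.0% did. The 29 bases around each match are shown because DESeq2 called *Pgd* and *Me1* higher at an adjusted p under 0.05. That threshold was added after the data were seen. DESeq2 also called *Idh1* and *Pgls* there, which had no match, and did not call *G6pdx* (DESeq2 adjusted p = 0.107). The bases are written in the direction of the gene, with the 9 bases of the match in capitals.
Me1, chr9:86695902-86695930, minus strand: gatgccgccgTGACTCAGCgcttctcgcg
G6pdx, chrX:74428919-74428947, minus strand: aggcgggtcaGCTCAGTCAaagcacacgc
Pgd, chr4:149166061-149166089, minus strand: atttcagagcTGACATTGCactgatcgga

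The match in *Me1* was TGACTCAGC and spanned the RefSeq transcription start. That form was found in 0.454% of all promoters and in no other promoter of a member. The match in *G6pdx* was on the opposite strand, 49 to 57 bases before the start, and also fits the narrower form TGACNNAGC, which 3.84% of all promoters held. The match in *Pgd* fits the broad form only and lay just after the start of the second of its RefSeq promoters. The promoters of *Pgls*, *Taldo1*, *Tkt*, *Idh1*, *Idh2* and *Mthfd1* held no match in this window. These matches are descriptions of the letters, and no binding was measured here.

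Other genes of the same pathways were taken from lists. Of 66 listed genes 60 were tested, 36 with a positive and 24 with a negative log2 fold change and a median of 0.04. Both loaded values were above both unloaded values for 23 of them and below for 16, which is 38.3% and 26.7% of the tested genes, against 22.1% and 24.5% of all tested genes. No listed gene passed an adjusted p of 0.01 in edgeR's quasi-likelihood test or in limma-voom, and 12 of the 60 had an unadjusted edgeR p under 0.05, against 14.3% of all tested genes. DESeq2 called 4 higher and none lower at 0.01, where it called 1.34% of all its tested genes higher and 1.52% lower.

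All 4 belonged to the 16 tested enzymes that use NADPH, of which 11 had a positive and 5 a negative log2 fold change, with a median of 0.19. Of all tested genes, 48.5% had a positive log2 fold change. Both loaded values lay above both unloaded values for 10 of the 16 and below them for 5, which is 62.5% and 31.2%, against 22.1% and 24.5% of all tested genes. *Nqo1*, a quinone reductase and a standard NRF2 target, was measured at 95.2 and 94.1 CPM in unloaded and 148 and 153 CPM in loaded cells (edgeR adjusted p = 0.0216, DESeq2 adjusted p = 2.55e-09). *Txnrd1*, the cytosolic thioredoxin reductase, was measured at 483 and 448 CPM in unloaded and 612 and 639 CPM in loaded cells (edgeR adjusted p = 0.0516, DESeq2 adjusted p = 7.2e-06). *Blvrb*, a biliverdin and flavin reductase, was measured at 21 and 22.5 against 36.7 and 32.8 CPM (edgeR adjusted p = 0.0663, DESeq2 adjusted p = 0.00353). For *Fasn*, the fatty acid synthase, the values were 901 and 866 against 1069 and 1048 CPM (edgeR adjusted p = 0.108, DESeq2 adjusted p = 0.00817). The groups did not overlap for any of these 4 genes.

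In the companion genes of the producing routes the medians stayed near 0. The median log2 fold change was -0.02 over 9 tested genes around the pentose phosphate route, 0.01 over 14 genes of malate and citrate metabolism, 0.08 over 13 folate genes and 0.05 over 8 genes that supply NAD and NADP, among them the NAD kinases that make NADP. None of these 44 genes was called by edgeR or DESeq2 at an adjusted p under 0.01, and 4 of the 44 had an unadjusted edgeR p under 0.05, against 14.3% of all tested genes. At 0.01 edgeR called only 16 of 16269 genes, so that none called in a list of this size says little about it. *G6pd2*, an autosomal copy of *G6pdx*, had no count in any library.

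**Figure D4:**
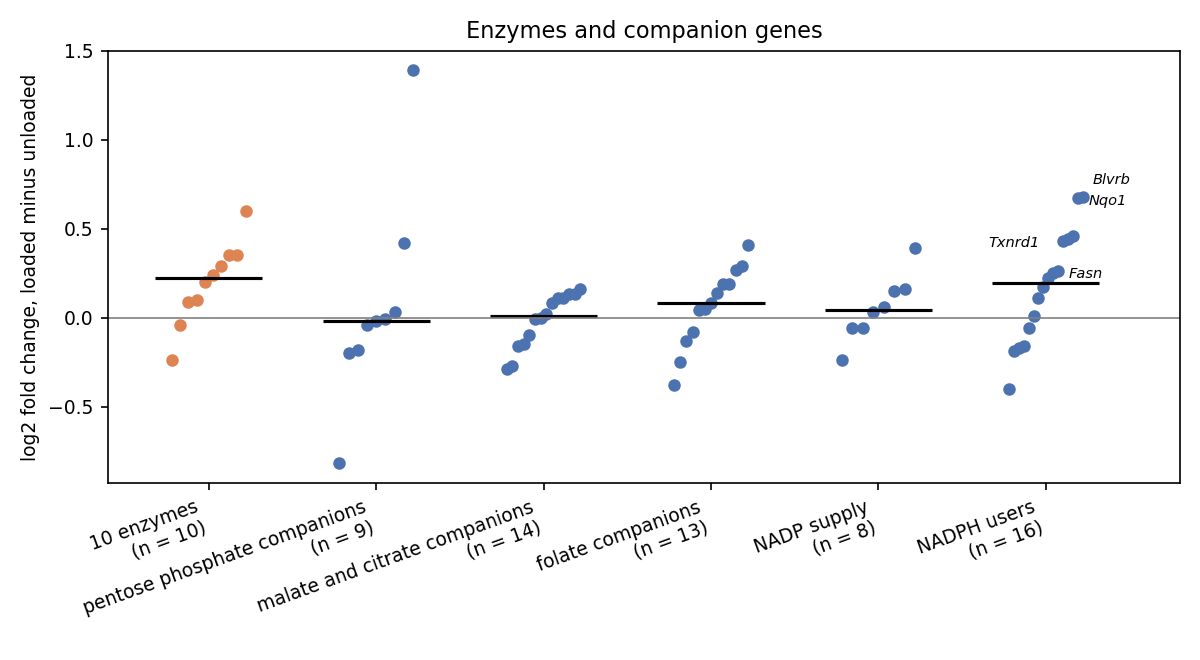
Log2 fold change, loaded minus unloaded, of each tested gene among the 10 enzymes (orange) and the lists of companion genes (blue), sorted within each list, with the list median as a black line. The medians are 0.22 for the 10 enzymes and 0.19 for NADPH users, and between -0.02 and 0.08 for the other lists, and the 4 genes that DESeq2 called at 0.01 are named.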

How the data were processed

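RNA-seq of 2 unloaded and 2 loaded samples was analysed from the gene counts, and groups were taken from the sample titles. The authors depleted ribosomal RNA, mapped trimmed reads to mm10 with HISAT2 (version 2.1.0), assembled transcripts with StringTie (version 1.3.5) and converted coverage to counts per gene with the prepDE script. Their differentially expressed genes were those with an adjusted p under 0.01 in DESeq2 (version 1.32.0). The deposited counts are whole numbers without normalization. All of them are estimates from coverage, so the comparisons with counting error are approximate. Read length and strandedness are not given in the sources used here. Coordinates, exon lengths and overlaps are from GENCODE M21 (GRCm38).

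In R 4.3.3 with edgeR 4.0.16, filterByExpr with a count minimum of 10 left 16269 genes. These were scaled by TMM and compared by the quasi-likelihood F test. The Benjamini-Hochberg adjustment ran across them, with a threshold of 0.01. The standard error is the log2 fold change divided by the square root of F. Alternatives were DESeq2 1.42.0, limma-voom (limma 3.58.1), RLE and upper-quartile factors, other count filters, protein-coding genes only, the replicate number as a block, a threshold of 0.05, other gene lengths and each library left out.

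The members and lists were chosen with earlier results of these data known. All members were named, and companion genes with an edgeR adjusted p under 0.05 or a DESeq2 adjusted p under 0.01, at most 5 per list. Others were named after their values were seen, apart from *Pdpn*, *Dmp1*, *Sost* and *Mepe*.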

Additional observations from a re-analysis of the deposited data

How the results depend on the processing

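The number of members called higher at an adjusted p of 0.01 was 0 in edgeR's quasi-likelihood test and 0 under RLE or upper-quartile factors, both other count filters, protein-coding genes only, limma-voom, a threshold of 0.05 and each library left out. DESeq2 called 1 member, *Pgd*, and 4 at a threshold of 0.05, a choice added after the data were seen. DESeq2 with the replicate block, also added, called 0 members. The adjusted p of *Pgd* ranged from 0.000339 with DESeq2 to 0.218 with the replicate block in edgeR. In edgeR it was 0.0463 with at least 10 counts in every library and 0.0427 with protein-coding genes only. With either of these choices, *Pgd* would pass a threshold of 0.05, as did 190 of 14350 and 189 of 12645 tested genes. No setting run called a member lower. Listed companion genes called numbered 0 in edgeR, 4 with DESeq2, 5 with DESeq2 at 0.05, 2 with DESeq2 and the replicate block, and 1 with edgeR at 0.05. With the replicate block in edgeR, no member passed and the median log2 fold change of the members was 0.22, as without it. The replicate numbers come from the labels alone, and the deviations of same-numbered libraries from their group means had a weak negative correlation (-0.119 across 13324 genes). With the crossed pairing as a block, added after the data were seen, 0 members and 0 companion genes were called.

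Over all tested genes, 16 were called by edgeR, 361 by DESeq2, 0 with the replicate block, 2 with the crossed block, 0 without a filter on low counts, 29 with at least 10 counts in every library, and 0 to 58 with each library left out, where the lone library is assumed to vary like the other group. The direction of each member was kept in every setting except for *Aldh1l2*, at 0.011 without loaded replicate 1, with -0.101 without loaded replicate 2 as the other end of its range. Leaving out each library gave *Pgls* between 0.43 and 0.75 and *Tkt* between 0.02 and 0.16. It gave the non-oxidative route a log2 ratio between 0.11 and 0.24 (0.24 without unloaded replicate 2), and the *Idh1* to *Idh2* ratio a change between 0.49 and 0.69. With the coding length the folate route's ratio was 0.009 in place of 0.03, and with the longest transcript that of the isocitrate dehydrogenases was 0.032 in place of 0.06. The strictest motif, TGACTCAGC, left 1 member with a match. With 2 libraries per group, the spread between replicates was estimated from few samples in every test.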
